A study of Mus musculus with 8 samples.

Results

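The 9 genes described here, Pdgfb, Igfbp4, Cpd, Plp2, Vim, Mical1, Med14, Mllt6 and Hemk1, had higher signals with TGF-b in activated mouse CD4 T cells, and they were chosen on their log2 ratios with over without TGF-b being similar in wild-type, Smad2-deficient and Smad3-deficient cells. They are 9 of 9464 genes bright enough to be read on the 6 arrays of those genotypes, and all 9 passed the filter on dim signals. Because the ratios chose the genes, the ratios are given as a description with no test. Igfbp4, Med14, Mical1 and Mllt6 came from earlier results that also used the Smad2KO_Smad3het arrays, whereas Vim, Cpd, Plp2, Hemk1 and Pdgfb came from results of the other 3 genotypes.

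The cells were sorted from the spleens of mice labelled C57BL/6J as naive CD4 T cells (CD25-, CD44 low, CD62L high, with a purity above 98%). Every culture was stimulated for 24 h with antibodies to CD3e and CD28 (1 ug/ml each) and IL-2 (10 ng/ml) while antibodies blocked IFN-g and IL-4 (10 ug/ml each), and TGF-b was either absent or present at 2 ng/ml. Mice were wild type (WT) or carried a Smad2 deletion confined to T cells (Smad2del/del, here Smad2KO), Smad3-/- (Smad3KO), and Smad2del/del with Smad3+/- (Smad2KO_Smad3het). The last stood in for cells without both factors, of which too few naive cells could be had, so 1 Smad3 allele was still there. The sources used here do not name the Cre line, the age of the mice or the number of animals behind each culture. There was 1 Affymetrix array for each genotype and treatment, 8 in all, so a ratio within a genotype compares 2 arrays and has no replicate. The p-values and SEs below come from limma, which sets the mean response against its spread over 3 genotypes. That spread is moderated with the spread of other genes, so an SE is not that of a gene's own 3 ratios. The cultures are not said to come from separate animals.

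TGF-b binds a pair of receptor kinases, and these phosphorylate Smad2 and Smad3, which join Smad4 and act on genes in the nucleus. The receptors also signal through kinases such as TAK1 and p38 and through TRAF6 and PI3 kinase. In naive CD4 T cells TGF-b is known for inducing Foxp3, for damping IL-2 and for curbing effector differentiation. Smad2 and Smad3 overlap in the genes they act on, and Smad3 binds DNA directly through CAGA letters, which full-length Smad2 does not do.

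Arrays of Smad2KO_Smad3het were unlike the other 6. Their rank correlations with the other genotypes ran from 0.660 to 0.693 over probe sets, against 0.917 to 0.928 among the others, and their scaled median signals were 103 and 107 against 30.7 to 35.7. All 6 CD4 T cell markers that could be read (Cd3e, Cd3d, Cd3g, Cd4, Cd5 and Cd28) were bright on every array. On the other 6 arrays 0 of 6 B cell, 0 of 4 NK, 0 of 3 erythroid, at most 1 of 10 myeloid, 1 of 5 platelet, 1 of 7 stromal and between 0 and 2 of 2 CD8 T cell markers were bright, meaning at 2 times the floor of 32.5 or more. On the Smad2KO_Smad3het arrays 2 and 4 B cell, 7 and 6 myeloid and 3 and 4 NK markers were bright without and with TGF-b. So were 5 and 4 platelet, 2 and 6 stromal, 1 and 0 erythroid and 2 and 1 CD8 T cell markers. But the share of probe sets that bright was 62.2% and 62.8% on them, against 39.3% to 40.7% on the other 6. The part of other cells in these counts was not tested. Means below therefore use WT, Smad2KO and Smad3KO, and Smad2KO_Smad3het is given apart. The targeted genes do not check the labels, since the Smad2 signal went from 1068 without to 1031 with TGF-b in WT and from 1155 to 1046 in Smad2KO, that of Smad3 went from 149 to 548 in WT and from 614 to 730.2 in Smad3KO, and no source used here says where the probes lie against the deleted parts.

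The promoters of 7 of the 9 genes matched the RefSeq promoter table of build GRCm38.p6 by symbol, all but Pdgfb and Plp2. The 250 bases before the start site of 4 of them are shown, Igfbp4 and Vim because their rises were among the largest and Mllt6 and Hemk1 because they held the Smad-binding letters CAGAC. They lie at chr11:99040994-99041243, plus strand (Igfbp4), chr2:13574061-13574310, plus strand (Vim), chr11:97663162-97663411, plus strand (Mllt6) and chr9:107338351-107338600, minus strand (Hemk1). Each is written 5′ to 3′ in the direction of the gene, and capitals mark CAGAC, the core of the Smad3 CAGA box, or GGCGC, a GC-rich Smad motif, on either strand (GTCTG or GCGCC when read on the other).
Igfbp4: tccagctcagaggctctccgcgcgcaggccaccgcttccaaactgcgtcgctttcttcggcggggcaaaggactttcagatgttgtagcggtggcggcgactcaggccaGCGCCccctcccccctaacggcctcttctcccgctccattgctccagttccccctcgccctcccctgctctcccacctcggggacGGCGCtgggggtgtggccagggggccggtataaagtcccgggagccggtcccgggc
Vim: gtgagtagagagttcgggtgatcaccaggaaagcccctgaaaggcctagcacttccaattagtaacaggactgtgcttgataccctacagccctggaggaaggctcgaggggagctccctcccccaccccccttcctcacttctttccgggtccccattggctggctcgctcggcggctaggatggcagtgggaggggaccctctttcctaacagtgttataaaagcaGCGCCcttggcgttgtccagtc
Mllt6: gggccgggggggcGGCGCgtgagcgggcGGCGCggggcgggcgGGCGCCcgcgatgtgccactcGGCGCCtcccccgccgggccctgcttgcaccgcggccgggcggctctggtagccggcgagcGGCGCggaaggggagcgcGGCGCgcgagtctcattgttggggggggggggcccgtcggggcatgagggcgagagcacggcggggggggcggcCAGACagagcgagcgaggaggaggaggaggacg
Hemk1: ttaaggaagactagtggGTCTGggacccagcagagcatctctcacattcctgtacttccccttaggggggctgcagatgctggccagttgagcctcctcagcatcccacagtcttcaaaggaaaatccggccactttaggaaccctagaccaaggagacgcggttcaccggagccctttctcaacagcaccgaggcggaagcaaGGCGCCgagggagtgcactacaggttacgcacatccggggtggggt
CAGAC stood in 2 of the 7 windows, 33 bases before the start in Mllt6 and 233 bases before it, on the opposite strand, in Hemk1, and in 42.2% of all 32851 promoter windows of that length. GGCGC stood in 6 of the 7, all but Mical1, and in 32.0% of all windows, where overlapping matches on both strands count separately. The windows of these 7 genes were 52.0% to 81.6% G and C against a median of 52.4% over all, and the part of base composition in the GGCGC count was not tested. The full palindrome GTCTAGAC was found in none of the 7 and in 0.167% of all windows, and the AP-1 site TGANTCA in none of the 7 and 6.75% of all. The TATA box letters TATAAA stood in 3 of the 7 (Vim, Mical1 and Igfbp4) and 12.4% of all, and the GC box GGGCGG in 3 (Cpd, Mllt6 and Med14) and 32.7%. A match is a description of the letters, not of binding.

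Each gene was read from the probe set with the highest mean over the 6 arrays, on signals scaled to a common 2% trimmed mean. The ratio is the log2 of the signal with over that without TGF-b, so 1 is a 2-fold rise. Of the 9 genes, 8 were at 2-fold or more in WT, 9 in Smad2KO and 8 in Smad3KO, where the shares over all bright genes were 4.56%, 2.95% and 1.9%. The gene under 2-fold in WT and in Smad3KO was Med14, at 1.98-fold and 1.92-fold, and the next above the threshold was Mllt6 in Smad3KO, at 2.04-fold. On these 6 arrays the lowest signal with TGF-b was above the highest without it for all 9 genes, as it was for 13.2% of the genes tested. These counts follow from how the genes were chosen and nothing is read from them. In bulk RNA, more cells of a kind and more RNA per cell cannot be told apart.

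**Figure D1:**
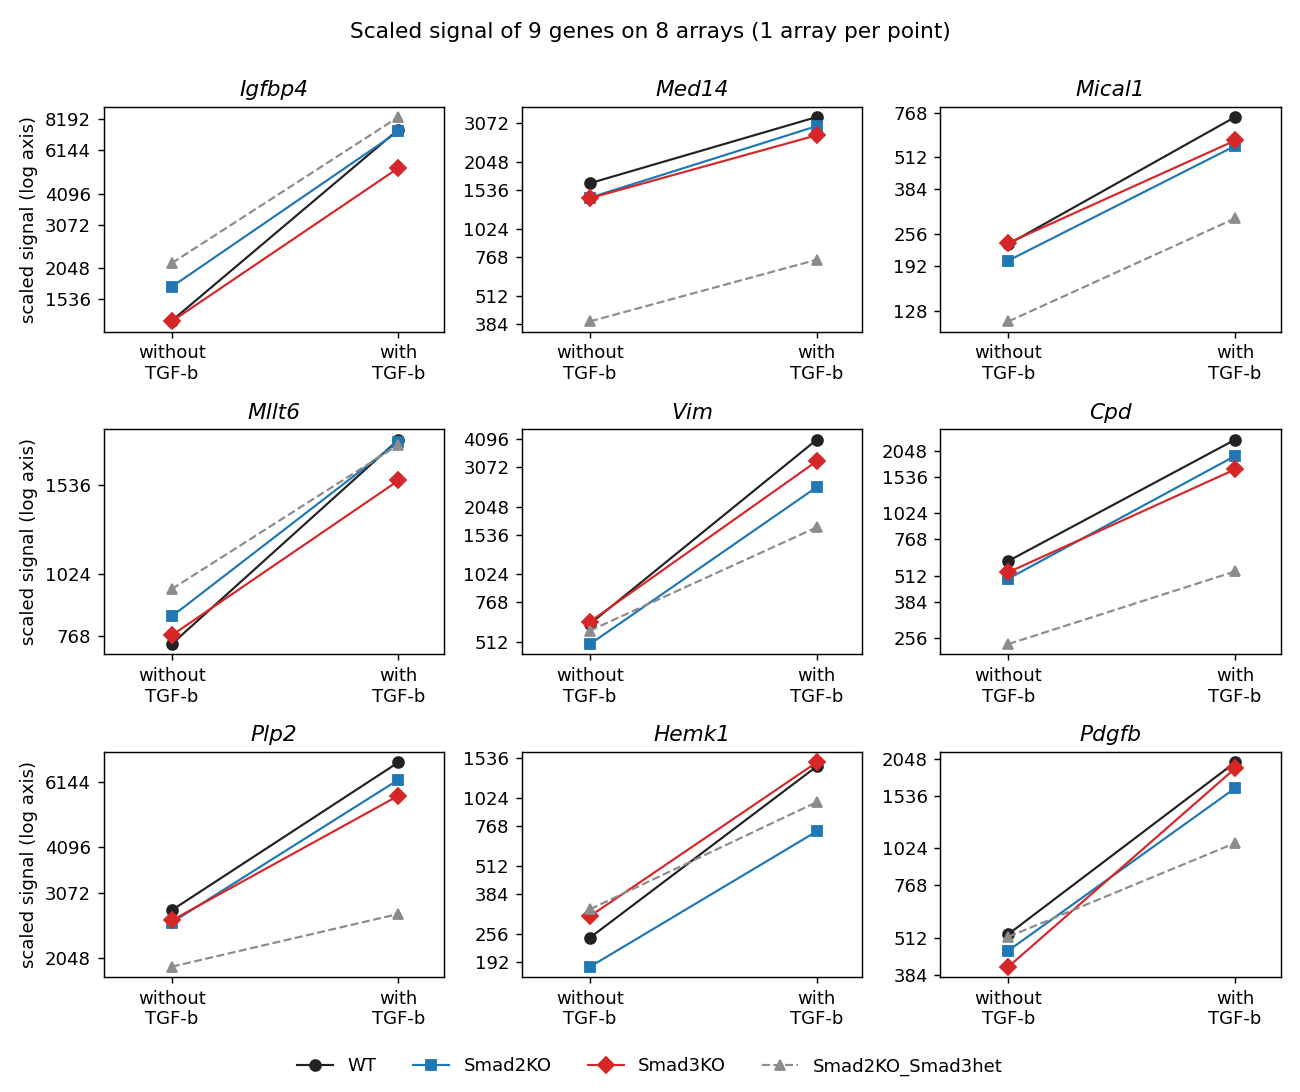
Scaled signal (log axis) of each of the 9 genes without and with TGF-b, 1 array per point, with lines joining the 2 arrays of a genotype (WT black circles, Smad2KO blue squares, Smad3KO red diamonds, Smad2KO_Smad3het dashed grey triangles). The solid lines run close to parallel, Hemk1 is lowest in Smad2KO at both ends, and the dashed line is flatter than the others for Vim, Cpd, Plp2, Hemk1 and Pdgfb.

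Among the secreted proteins, Pdgfb encodes the B chain of platelet-derived growth factor, a mitogen of mesenchymal cells. The Pdgfb signal went from 527 without to 1993 with TGF-b in WT, from 464 to 1632 in Smad2KO, from 409.5 to 1902 in Smad3KO, and from 516 to 1067 in Smad2KO_Smad3het. The ratios were 1.92 (WT), 1.81 (Smad2KO) and 2.22 (Smad3KO), a mean of 1.98 ± 0.208 (SD, n = 3 genotypes), and the Smad3KO ratio was the highest. The Smad3KO array had the lowest of the 3 signals without TGF-b and close to the WT signal with it. The other probe set gave the same order of high and low, with ratios of 1.67 (WT), 1.65 (Smad2KO) and 2.22 (Smad3KO) and signals without TGF-b of 139 in WT and 92.4 in Smad3KO.

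Igfbp4 encodes a secreted protein that binds insulin-like growth factors and keeps them from their receptor. The Igfbp4 signal went from 1255 without to 7445 with TGF-b in WT, from 1722 to 7314 in Smad2KO, from 1248 to 5206 in Smad3KO, and from 2145 to 8367 in Smad2KO_Smad3het. The ratios were 2.57 (WT), 2.09 (Smad2KO) and 2.06 (Smad3KO), a mean of 2.24 ± 0.286 (SD, n = 3 genotypes). Without TGF-b the Smad2KO signal was 1.37 times the WT signal and Smad3KO stood at the WT level, whereas with TGF-b Smad2KO stood at the WT level and WT was 1.43 times Smad3KO. On this probe set and scaling, the smaller mutant ratios thus came from a higher start in Smad2KO and a lower end in Smad3KO. With arrays centred on their medians, the mean log2 difference of Smad3KO from WT over both treatments went from -0.26 to -0.09.

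The 6 probe sets of Igfbp4 did not give equal ratios. The chosen one had the smallest spread of the 6, with SDs over the 3 genotypes of 0.286 to 1.16, and it was also the brightest. The Smad3KO ratio was the lowest of the 3 on all 6 probe sets, and 5 of the 6 fell in the order WT, Smad2KO, Smad3KO. Probe set 1423756_s_at, for instance, had ratios of 3.33 (WT), 2.67 (Smad2KO) and 2.34 (Smad3KO), and 1421992_a_at of 3.58 (WT), 2.89 (Smad2KO) and 2.52 (Smad3KO). The exception to the order was 1421991_a_at, at 3.92 in WT, 4.40 in Smad2KO and at least 3.11 in Smad3KO, where the signal without TGF-b, 8.11, lay under the floor. Probe set 1437406_x_at had almost no rise in Smad3KO, from 1048 to 1130.5, while it went from 874 to 4545 in WT. Its ratios of 2.38 (WT), 0.87 (Smad2KO) and 0.11 (Smad3KO) are far from equal. With TGF-b all 6 probe sets were lower in Smad3KO than in WT, and without TGF-b 5 of 6 were higher in Smad2KO than in WT. The SDs of the 5 others, 0.471 or more, exceed that of every chosen probe set of the 9 genes, so the name equal fits Igfbp4 only by its brightest probe set.

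Of the membrane proteins, Cpd encodes carboxypeptidase D, which trims basic residues from the ends of proteins passing through the trans-Golgi network. The Cpd signal went from 603 without to 2323 with TGF-b in WT, from 495 to 1939 in Smad2KO, from 532 to 1670.3 in Smad3KO, and from 239 to 537 in Smad2KO_Smad3het. The ratios were 1.95 (WT), 1.97 (Smad2KO) and 1.65 (Smad3KO), a mean of 1.85 ± 0.177 (SD, n = 3 genotypes). WT was the highest of the 3 both without and with TGF-b, and Smad3KO had the smallest ratio. All 7 probe sets were at 2-fold or more in the 3 genotypes, with means from 1.47 to 1.99, and the Smad3KO ratio was the lowest on 6 of them. The dimmest, 1442212_at, lay under the floor without TGF-b in all 3 genotypes and 1447392_s_at in Smad2KO and Smad3KO, so those ratios are lower bounds. The widest spread was on 1418018_at, with 2.16 (WT), 2.01 (Smad2KO) and 1.34 (Smad3KO).

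Plp2 encodes a small membrane protein with several membrane spans. The Plp2 signal went from 2758 without to 6953 with TGF-b in WT, from 2554 to 6236 in Smad2KO, from 2587 to 5644 in Smad3KO, and from 1938 to 2695 in Smad2KO_Smad3het. The ratios were 1.33 (WT), 1.29 (Smad2KO) and 1.13 (Smad3KO), a mean of 1.25 ± 0.109 (SD, n = 3 genotypes). The 3 signals without TGF-b lay within 1.08 times of each other, the closest of the 9 genes, and with TGF-b the order was WT, Smad2KO, Smad3KO. A second probe set, 1456247_x_at, is annotated to both Plp2 and Gm13669 and was left out of the gene's reading. It read 214 and 175 in WT, a ratio of -0.29, so the values of Plp2 rest on 1 probe set.

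The cytoskeletal genes were Vim and Mical1. Vim encodes vimentin, the intermediate filament protein of leukocytes and mesenchymal cells. The Vim signal went from 614 without to 4076 with TGF-b in WT, from 499 to 2504 in Smad2KO, from 628 to 3268 in Smad3KO, and from 573 to 1656 in Smad2KO_Smad3het. The ratios were 2.73 (WT), 2.33 (Smad2KO) and 2.38 (Smad3KO), a mean of 2.48 ± 0.219 (SD, n = 3 genotypes), the largest mean of the 9 genes. All 3 probe sets gave means between 2.26 and 2.48. Which genotype was highest depended on the probe set, since WT led on the chosen one and Smad2KO on the other two, at 2.53 on 1438118_x_at and 2.44 on 1456292_a_at, against 2.40 and 2.23 in WT. On the level itself Smad2KO was below WT on all 3 probe sets with and without TGF-b.

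Mical1 encodes a flavin monooxygenase that oxidises actin and takes filaments apart. The Mical1 signal went from 234 without to 737 with TGF-b in WT, from 202 to 568 in Smad2KO, from 236 to 596 in Smad3KO, and from 116 to 295 in Smad2KO_Smad3het. The ratios were 1.66 (WT), 1.49 (Smad2KO) and 1.33 (Smad3KO), a mean of 1.50 ± 0.161 (SD, n = 3 genotypes). The second probe set gave 1.73 (WT), 1.37 (Smad2KO) and 1.21 (Smad3KO). On both probe sets the order was WT, Smad2KO, Smad3KO, and with TGF-b both mutants were below WT.

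Med14 and Mllt6 encode nuclear proteins. Med14 is the backbone subunit of Mediator, the complex that joins transcription factors to RNA polymerase II. The Med14 signal went from 1642 without to 3252 with TGF-b in WT, from 1414 to 2961 in Smad2KO, from 1407 to 2695 in Smad3KO, and from 394 to 745 in Smad2KO_Smad3het. The ratios were 0.99 (WT), 1.07 (Smad2KO) and 0.94 (Smad3KO), a mean of 1.00 ± 0.0649 (SD, n = 3 genotypes), the smallest mean and the smallest SD of the 9 genes. This brightest probe set was also the most even. The other 4, with signals of 72.8 to 562 on the 6 arrays, had ratios from 0.10 to 1.39. On 1450229_at the order was WT, Smad2KO, Smad3KO (1.29, 1.06 and 0.85), and on 1457167_at it was the reverse (0.51, 0.61 and 0.97). No probe set of Med14 was at 2-fold in all 3 genotypes.

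Mllt6, also called AF17, is a PHD finger protein known as a fusion partner of MLL in leukaemia. The Mllt6 signal went from 741 without to 1896 with TGF-b in WT, from 841 to 1879 in Smad2KO, from 771 to 1571 in Smad3KO, and from 954 to 1851 in Smad2KO_Smad3het. The ratios were 1.36 (WT), 1.16 (Smad2KO) and 1.03 (Smad3KO), a mean of 1.18 ± 0.165 (SD, n = 3 genotypes). WT and Smad2KO met at the same signal with TGF-b and Smad3KO was lower. The other 2 probe sets were dimmer and less even, with 0.82 (WT), 0.51 (Smad2KO) and 1.19 (Smad3KO) on 1425360_at and 1.26 (WT), 0.09 (Smad2KO) and 0.68 (Smad3KO) on 1451685_at. On both of these Smad2KO had the smallest ratio, unlike on the chosen probe set.

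Hemk1 encodes a methyltransferase of mitochondrial translation release factors. The Hemk1 signal went from 247 without to 1413 with TGF-b in WT, from 183 to 729 in Smad2KO, from 307 to 1473 in Smad3KO, and from 329.5 to 982 in Smad2KO_Smad3het. The ratios were 2.52 (WT), 1.99 (Smad2KO) and 2.26 (Smad3KO), a mean of 2.26 ± 0.263 (SD, n = 3 genotypes). Smad2KO stood apart, with the lowest signal of the 3 genotypes in both treatments. With TGF-b, WT was 1.94 times and Smad3KO 2.02 times the Smad2KO signal. The second probe set, 1424703_at, gave the same picture, with ratios of 2.16 (WT), 1.53 (Smad2KO) and 2.10 (Smad3KO) and signals with TGF-b of 708, 350.0 and 667.

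**Figure D2:**
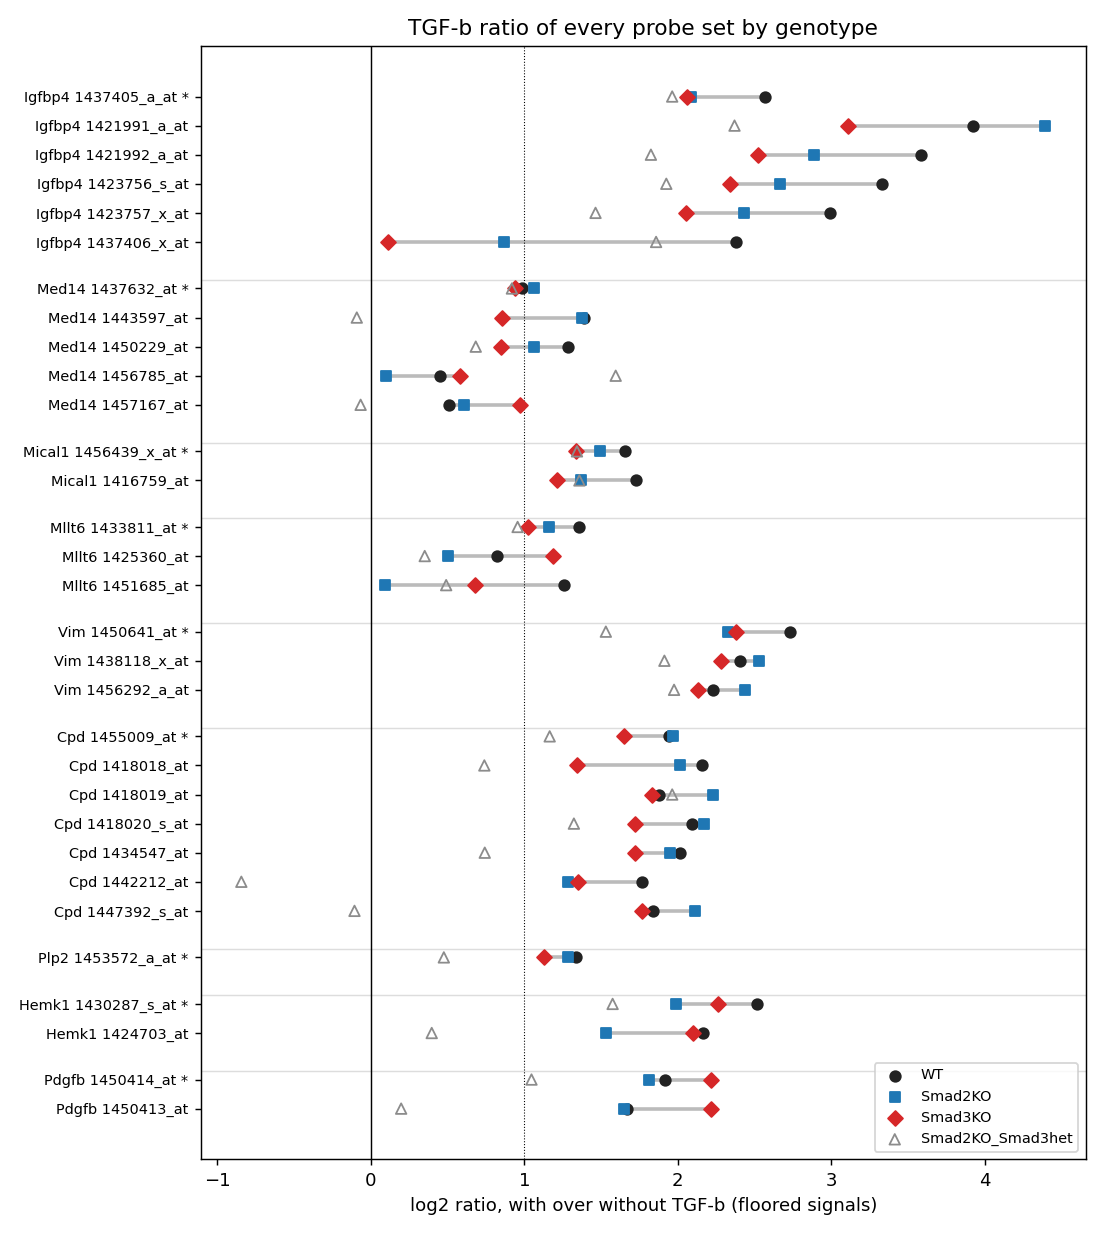
The log2 ratio of signals with over without TGF-b for each of the 31 probe sets with 1 gene symbol (rows, the chosen one of each gene marked by an asterisk) in WT (circles), Smad2KO (squares), Smad3KO (diamonds) and Smad2KO_Smad3het (open triangles), with a grey bar from the lowest to the highest of the first 3 and a dotted line at 2-fold. Every ratio of the first 3 genotypes is above 0, the widest bar is that of Igfbp4 1437406_x_at, and 29 of the 31 triangles lie below the mean of the other genotypes.

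Over all 31 probe sets, every ratio in WT, Smad2KO and Smad3KO was above 0, and 23 were at 2-fold or more in all 3. The highest ratio was in WT on 18, in Smad2KO on 8 and in Smad3KO on 5, and the lowest was in Smad3KO on 21, in Smad2KO on 9 and in WT on 1. Probe sets of a gene share their RNA and are not replicates. By the chosen probe sets, WT had the highest ratio for 6 of the 9 genes and Smad3KO the lowest for 6. Quantile normalization gave 5 and 7, and centring of each array on its median 7 and 6.

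The 9 genes were set against the 72 genes at 2-fold or more in each of the 3 genotypes with all 6 signals at or above the floor, 8 of which are members, all but Med14. Without the condition on the floor there were 93 such genes, 0.983% of those tested. The SD of the 3 ratios was 0.0649 to 0.286 among the members, with a median of 0.177, and 0.0597 to 1.10 among the 72, with a median of 0.326. Other genes were more even, and by SD, counted from the smallest, the members ranked from 7 (Plp2) to 32 (Igfbp4) of 72. Relative to its mean, the range of the 3 ratios was 12.9% (Med14) to 27.8% (Mllt6), with a median of 20.2% against 33.9%. WT had the highest ratio for 66.7% of the 72 genes and Smad3KO the lowest for 65.3%, near the 6 of 9 and 6 of 9 of the members. The robust SD of the ratios over genes bright with and without TGF-b was 0.329 in WT, 0.261 in Smad2KO and 0.197 in Smad3KO, so ratios were wider in WT for genes at large, and its part in the order of the members' ratios was not tested.

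**Figure D3:**
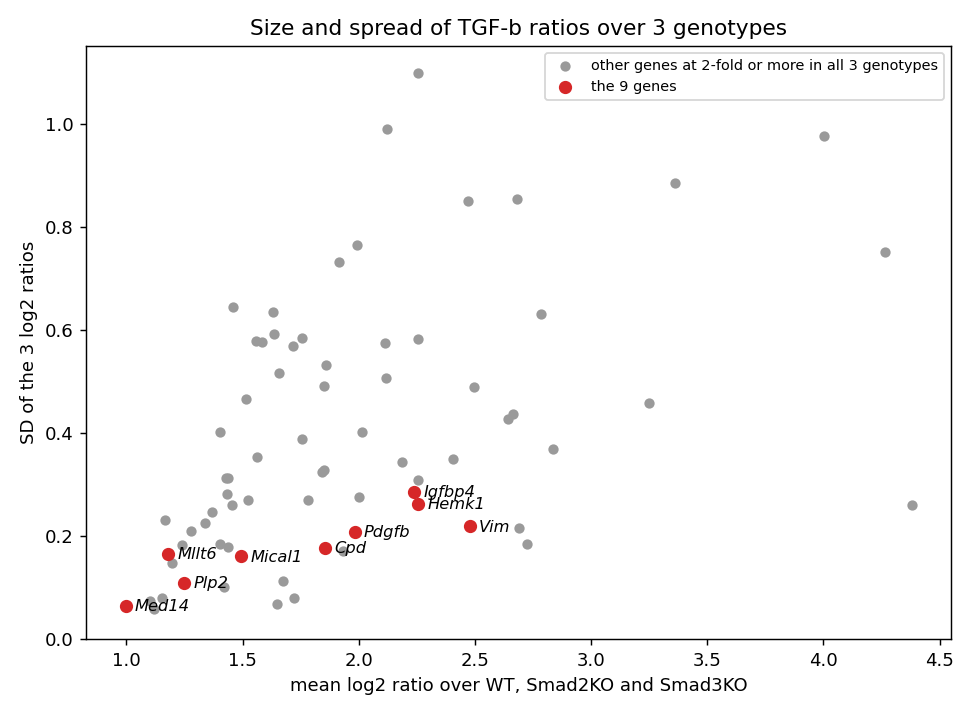
Mean of the 3 log2 ratios (WT, Smad2KO and Smad3KO) against their SD, with the 9 genes in red and, in grey, the other genes at 2-fold or more in all 3 genotypes with every signal at or above the floor. The red points lie at SDs of 0.0649 to 0.286, in the lower part of the cloud, among grey points of like SD.

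Among the 72 shared rises, the 5 other genes with the smallest SD of the 3 ratios were Tnfrsf1b, Kcnk6, Phlda1, Cish and Acpp. Cish, an inhibitor of cytokine receptor signalling, had ratios of 1.81 (WT), 1.72 (Smad2KO) and 1.65 (Smad3KO) (SD 0.0795). Tnfrsf1b, a TNF receptor, had 1.08 (WT), 1.09 (Smad2KO) and 1.19 (Smad3KO) (SD 0.0597). Kcnk6, a potassium channel gene, had a mean of 1.65, Phlda1 of 1.10 and Acpp, an acid phosphatase gene, of 1.15. The ranking is by the same ratios and carries no test. In Smad2KO_Smad3het the ratio of Cish was 1.51 and that of Acpp at least 1.66, its signal of 16.5 without TGF-b lying under the floor. The ratios of Kcnk6 and Phlda1 there were -2.72 and 0.64, and the Tnfrsf1b signals were 598 and 599.

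The levels are given apart from the ratios. Of the 9 genes, 0 differed by 2-fold or more between Smad2KO or Smad3KO and WT, in either treatment, the nearest being Hemk1. The shares over all bright genes were 2.2% for Smad2KO and 2.17% for Smad3KO without TGF-b, and 2.64% and 3.39% with it, so a count of 0 in 9 is near the background. Without TGF-b the highest of the 3 genotypes was 1.08 (Plp2) to 1.68 (Hemk1) times the lowest, with a median of 1.22 against 1.17 over 8218 genes bright on all 6 arrays. With TGF-b it was 1.21 (Mllt6) to 2.02 (Hemk1) times, with a median of 1.30 against 1.19. The 72 shared rises, members among them, are by definition at 2-fold or more in all 3 genotypes. Their medians were higher, at 1.34 without and 1.66 with TGF-b. Nothing is read from this, as similar ratios chose the members. No test of levels is given, because the spread it would use is that of the ratios on which the genes were chosen.

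With TGF-b, 9 of the 9 genes read below WT in Smad2KO and 8 in Smad3KO, the exception being Hemk1. Of all genes tested 55.2% and 49.4% did so, and of the 72 shared rises 81.9% and 93.1%. With quantile normalization the counts of members with TGF-b were 8 and 8, and with arrays centred on their medians 7 and 7, where 33.7% and 29.2% of all genes read below WT. Without TGF-b the counts below WT were 7 in Smad2KO and 5 in Smad3KO, against 48.6% and 49.4% of all genes. With centred arrays they were 6 and 2, against 18.2% and 20.6%, so the share below WT depends on the scaling for genes at large as well. The 3 largest single differences were Hemk1, -0.95 on the log2 scale in Smad2KO against WT with TGF-b, Vim, -0.70, and Igfbp4, -0.52 in Smad3KO against WT.

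In Smad2KO_Smad3het, 6 of the 9 genes were at 2-fold or more, where the share over all bright genes was 5.99%, and all 9 ratios were above 0. The genes chosen without these arrays are the ones for which this is a further reading. Of those 5, Vim had a ratio of 1.53, Hemk1 1.58, Cpd 1.17, Pdgfb 1.05 and Plp2 0.48. Each was smaller than the mean of the other 3 genotypes, by 0.68 (Hemk1) to 0.95 (Vim). The 4 genes chosen with these arrays had ratios of 1.96 (Igfbp4), 1.34 (Mical1), 0.96 (Mllt6) and 0.92 (Med14), which fell short of the mean by 0.08 (Med14) to 0.27 (Igfbp4). Of the 72 shared rises 36 were at 2-fold in this genotype, with a median ratio of 1.00 against 2.17 in WT. These 72 genes and the 5 above were chosen on the other 3 genotypes, which favours a smaller ratio in a genotype left out. The part of that choice in the shortfalls was not tested.

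These arrays also had a narrower range of signals. The log2 ratio of the 98th percentile to the median was 4.85 and 4.79 on them and 6.81 to 7.07 on the others, and its part in the smaller ratios was not tested. Of the 31 probe sets, 27 had a ratio above 0 in Smad2KO_Smad3het and 17 were at 2-fold or more. All 6 for Igfbp4 (1.46 to 2.37) and all 3 for Vim (1.53 to 1.98) were, whereas Cpd ran from -0.84 to 1.96. On the chosen probe sets of Med14, Mical1, Cpd and Plp2 the scaled levels in this genotype were below those of the other 3 in both treatments, for example 394 against 1407 or more for Med14 without TGF-b. Other probe sets went the opposite way, such as Med14 1443597_at without TGF-b, at 195 against 104 in WT, and Cpd 1434547_at, at 766 against 360.4.

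The chromosomal neighbours of the genes were then read, as a look made after the values were seen. In the RefSeq gene order, the 2 protein-coding genes on either side of each member made 36 neighbours, of which 21 were tested. By the limma test of the mean response over WT, Smad2KO and Smad3KO with genotype as a block, 7 of the 21 rose and 2 fell, against 7.15% and 5.64% of all genes tested (677 and 534). The counts over all genes were 262 and 164 without the WT pair, 569 and 342 without Smad2KO and 1007 and 985 without Smad3KO. Smpd2 lost its call without any 1 of the 3 pairs, 6430571L13Rik without WT or Smad2KO, and Syp without WT. St8sia6, Hacd1, Apobec3, Smpd2 and 6430571L13Rik lost theirs without the genotype block, and 1 of the 9 calls, Cish, held with the Smad2KO_Smad3het arrays added. Of the 7 rises, 3 lay around Hemk1 on chromosome 9. In order along the chromosome these were Mapkapk3, a kinase acting below p38, and Cish on one side of Hemk1 and 6430571L13Rik on the other. Mapkapk3 rose by 2.12 (SE 0.203, limma adjusted p = 0.00541), with ratios of 2.57 (WT), 2.21 (Smad2KO) and 1.57 (Smad3KO). Cish rose by 1.72 (SE 0.0732, limma adjusted p = 1.19e-07). 6430571L13Rik rose by at least 1.10 (limma adjusted p = 0.0337), its signals without TGF-b being under the floor in all 3 genotypes and 69.4, 92.5 and 53.3 with it. It and Syp passed the filter on dim signals only through arrays with TGF-b, which favours a rise, and 6430571L13Rik lost its call with a floor at 2 times the one used.

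The ratio of Mapkapk3 went down in the order WT, Smad2KO, Smad3KO, Cish was nearly equal and Hemk1 was lowest in Smad2KO, while the ratios of 6430571L13Rik are lower bounds and have no order. The other 4 rises among neighbours were St8sia6 beside Vim at 0.86, Syp near Plp2 at 1.44, Smpd2 beside Mical1 at 0.76 and Ccr7, the chemokine receptor of naive T cells, near Igfbp4 at 0.45. The 2 falls were Hacd1 near Vim at -0.67 and Apobec3 near Pdgfb at -0.64. Top2a, beside Igfbp4, was at -0.15 and did not pass.

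**Figure D4:**
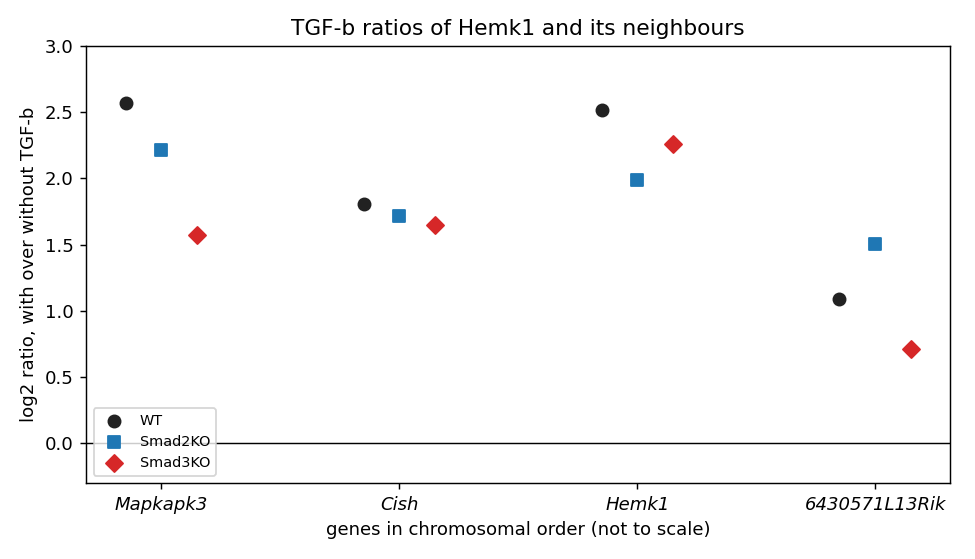
The log2 ratio with over without TGF-b in WT (circles), Smad2KO (squares) and Smad3KO (diamonds) for Hemk1 and its tested neighbours in chromosomal order, 1 pair of arrays per point. All 12 ratios are above 0, and those of 6430571L13Rik are lower bounds because its signals without TGF-b lay under the floor.

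Families and partners of the 9 genes were read by the same limma test. Of 92 tested genes in 9 lists, 13 rose (14.1%) and 0 fell, where 11 were lower at an unadjusted p under 0.05. Of all genes tested, 7.15% rose and 5.64% fell. Among 31 other Mediator genes, 1 rose, Cdk19, a kinase of its kinase module, by 0.76 (SE 0.172, adjusted p = 0.0159). The median response of the list was -0.06 against -0.02 over all genes tested, where the mean ratio of Med14 was 1.00. Among MLL partners and elongation factors, 2 of 15 rose, Ell2 by 0.63 (SE 0.103, adjusted p = 0.0021) and Aff1 by 0.46 (SE 0.131, adjusted p = 0.0412), and 3 were higher and 3 lower at an unadjusted p under 0.05. Cdk19 and Aff1 lost their calls without the WT pair, and Aff1 also without the Smad2KO pair.

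Of MICAL family genes, plexins and partners, 3 of 12 rose, with a list median of 0.21. These were the kinase genes Stk38l, by 1.43 (SE 0.160, adjusted p = 0.000149), and Stk38, by 0.66 (SE 0.0960, adjusted p = 0.0012), whose protein Mical1 is known to bind, and Crmp1, by 1.45 (SE 0.343, adjusted p = 0.0211), with ratios of 2.17 (WT), 1.84 (Smad2KO) and 0.35 (Smad3KO). Of intermediate filament genes and their linkers, 2 of 7 rose, the crosslinker gene Plec by 1.03 (SE 0.133, adjusted p = 0.000633) and the desmosomal linker Dsp by at least 1.31 (SE 0.307, adjusted p = 0.0161), with a list median of 0.66. The lamin gene Lmna was at 1.34 and did not pass (adjusted p = 0.0824). Its ratio in Smad2KO was set to 0, as both signals there (8.54 and 27.8) lay under the floor. Its ratio in Smad3KO is a lower bound. Of MARVEL domain and related membrane genes, 3 of 9 rose (list median 0.26). These were Cmtm6, which stabilises PD-L1 at the cell surface, by 0.73 (SE 0.0892, adjusted p = 0.000251), Marveld1 by at least 1.95 (SE 0.242, adjusted p = 0.000501) and Syp by 1.44 (SE 0.234, adjusted p = 0.00199). All these p-values are limma's, adjusted over all 9464 genes. Crmp1, Dsp and Syp passed the filter on dim signals only through arrays with TGF-b, which favours a rise. These 3 lost their calls without the WT pair and Cmtm6 without the Smad3KO pair. Crmp1 and Dsp also lost theirs with a floor at 2 times the one used, and Marveld1 with a floor at the 25th percentile.

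In the remaining families few genes were bright enough to be tested. Of 4 carboxypeptidases and convertases 1 rose, Furin, which cleaves the TGF-b precursor, by 1.28 (SE 0.106, adjusted p = 1.56e-05) by limma, and the list median was -0.03. Of 4 genes of the insulin-like growth factor system 1 rose, the receptor Igf2r by 0.55 (SE 0.152, adjusted p = 0.0394) by limma, with a list median of 0.37. Its ratios of 1.04 (WT), 0.37 (Smad2KO) and 0.25 (Smad3KO) were not even, and it lost its call without the WT pair. Of 3 other PDGF and VEGF genes and 7 translation termination genes limma called 0, and at an unadjusted p under 0.05 it counted 1 and 2, all lower. The list medians were -0.04 and -0.04.

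Of known TGF-b target genes 12 of 17 rose by limma with 0 falls (1 lower at an unadjusted p under 0.05) and a list median of 1.14. The list was drawn up with earlier results of these data known. Those with the smallest p were Pmepa1 at 2.84, Klf10 at 1.93, Skil at 1.84, Ski at 1.28, Id2 at 0.89 and Id1 at 1.76. Of the 12 genes called, 2 (Foxp3 and Ldlrad4) passed the filter on dim signals only through arrays with TGF-b, which favours a rise. Klf10, a zinc finger repressor, had ratios of 2.09 (WT), 1.75 (Smad2KO) and 1.96 (Smad3KO), an SD of 0.172 within the range of the 9 genes. Smad7, the inhibitory Smad, had 1.13 (WT), 1.52 (Smad2KO) and 0.78 (Smad3KO). Of 21 genes of TGF-b receptor signalling beside Smad2 and Smad3, 3 rose by limma, the adaptor genes Traf6 by 1.14 (SE 0.176, adjusted p = 0.00361) and Traf4 by 0.54 (SE 0.135, adjusted p = 0.022) and the PI3 kinase subunit Pik3r1 by 0.98 (SE 0.144, adjusted p = 0.00203), with a list median of 0.03. The ratios of Traf6 were 1.53 (WT), 1.34 (Smad2KO) and 0.56 (Smad3KO) and those of Pik3r1 1.38 (WT), 1.00 (Smad2KO) and 0.56 (Smad3KO). Of the 28 genes called in these 11 lists, 2 passed when the Smad2KO_Smad3het arrays were added (Furin and Skil), and 18 without the WT pair, 26 without the Smad2KO pair and 27 without the Smad3KO pair. Traf4 was among those lost without WT. Of the genes named, Igf2r, Dsp, Ell2, Aff1, Traf4 and Id2 lost their calls without the genotype block, and Igf2r, Dsp, Cdk19, Stk38, Crmp1, Ell2, Aff1, Pik3r1, Traf6 and Traf4 without limma's trend and robust settings.

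Signs of RNA handling that move with TGF-b in a genotype are given as values. The 3 probe sets for 18S ribosomal RNA had signals of 2614 to 4020.2 in WT without TGF-b and 70.7 to 184 with it. In Smad2KO they read 35.0 to 79.5 and 123 to 226, and in Smad3KO 877 to 2544 and 716 to 997. Their part in the ratios was not tested. The ratio of 3′ to 5′ signals of Gapdh was 0.785 to 0.835 on the 6 arrays, and that of actin 1.12 to 1.19. On the Smad2KO_Smad3het arrays these were 0.891 and 0.900 for Gapdh and 1.25 and 1.55 for actin, without and with TGF-b. The part of this in the ratios was not tested. On the 6 arrays, summed signals of the 7 stromal markers were 227 to 262 without and 181 to 297 with TGF-b. Those of the 5 platelet markers were 122 to 193 and 124 to 186. Vim and Pdgfb are also made by such cells. Col1a1, Col3a1, Dcn and Cdh5 of the stromal list and Ppbp and Gp9 of the platelet list lay under the floor on all 6 arrays. Pecam1 had signals of 106 to 171 on them, Itga2b of 61.7 to 113 and Col1a2 of 16.3 to 55.1. On the Smad2KO_Smad3het arrays the stromal sum was 1035 without and 1492 with TGF-b and the platelet sum 1031 and 1495. The part of such cells in the values of Vim and Pdgfb was not tested.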

How the data were processed

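Total RNA (6 ug a sample) from 8 cultures was labelled for single-colour Affymetrix arrays. As deposited, the values are linear intensities, 1 per probe set, made by the authors with GCOS 1.4 per the submitters' processing notes, while the algorithm and scaling are not stated there. Array medians as deposited were 27.3 to 44.4, so arrays were scaled to the mean of the 6 arrays' 2% trimmed means, by factors of 0.853 to 1.26, and 2.33 and 2.61 for Smad2KO_Smad3het. Signals were raised to a floor at the median, 32.5, and log2 was taken. A ratio against a signal under the floor is a lower bound. Of 45101 probe sets, 34945 had 1 gene symbol in the platform annotation, 932 several and 9160 none, besides 64 controls. Genes with a signal at 2 times the floor on any of the 6 arrays were tested, each by its probe set of highest mean.

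The test of the mean response used limma 3.58.1 under R 4.3.3 (genotype as a block, trend and robust settings, 2 residual degrees of freedom, Benjamini-Hochberg at 0.05). The procedure was also run on simulated data with independent noise and the same change in every genotype. That run does not cover responses that differ between genotypes, as some do here. The members and the gene lists were chosen with earlier results of these data known. List genes passing the test were named (up to 6 a list, by p), with the 5 non-members of smallest SD, Smad2, Smad3 and Smad7, and the neighbours after their values were seen. The 12 alternatives changed scaling, floor, probe set, filter, block, moderation or arrays. With 1 array per group, the number of samples limits the precision.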

Additional observations from a re-analysis of the deposited data

Results flagged for a closer look

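Of the 31 probe sets of the 9 genes, 4 had a log2 ratio below 0 in Smad2KO_Smad3het and above 0 in WT, Smad2KO and Smad3KO, and these differences were not tested, with 1 array per group. For Cpd they were 1442212_at, at -0.84 with signals of 119 without and 66.5 with TGF-b, and 1447392_s_at, at -0.11 with signals of 62.2 without and 57.8 with TGF-b. The 5 other probe sets of Cpd, its brightest among them, were above 0 there. For Med14 they were 1443597_at, at -0.091 with 195 without and 183 with TGF-b, and 1457167_at, at -0.066 with 179 without and 171 with TGF-b. All 4 are among the dimmer probe sets of their genes.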

How the results depend on the processing

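The mean ratios of the 9 genes kept their sign under all 9 alternatives run for each, and of 81 values 75 moved by less than the SD over genotypes. The 6 that moved more were Igfbp4 at 2.57, Med14 at 0.87 and Mllt6 at 0.90 with the mean of their probe sets, and Vim at 2.24, Plp2 at 1.06 and Pdgfb at 1.75 with the Smad2KO_Smad3het arrays added. The level differences against WT moved by more than their SD over treatments in 12 of 108 values. Both counts include values that could not move. Changes of the floor left ratios and levels as they were, since every signal of the chosen probe sets lay above each floor. The added arrays could not move the level differences, and the mean of probe sets could not move Plp2, read from 1 probe set. Leaving out 1 genotype cannot move a mean of 3 ratios by as much as their SD. Those values thus passed in advance, except Vim without the WT pair, read there from another probe set. These counts therefore overstate how little the values depend on the processing. With the mean of probe sets 3 rather than 6 of the 9 genes were at 2-fold in Smad2KO_Smad3het. The limma counts over all genes, 677 higher and 534 lower, were 15 and 4 with the Smad2KO_Smad3het arrays added, 305 and 154 without the filter, 370 and 230 without the genotype block, 267 and 125 without trend and robust settings, and 262 to 1007 and 164 to 985 without 1 pair of arrays. Genes at 2-fold with a floor at the 25th percentile numbered 1700 in WT (against 420), 1068 in Smad2KO (against 267), 1166 in Smad3KO (against 170) and 1995 in Smad2KO_Smad3het (against 542). A lower floor lets dimmer genes count as bright and also enlarges ratios with a signal under the main floor, and the parts of these were not told apart. With a floor at 2 times the one used they were 108 in Smad3KO and 299 in Smad2KO_Smad3het, and in the latter 251 with centred arrays and 1515 with those arrays added, which set scaling, floor, filter and probe set on all 8. The cause of the other changes was not tested. The genotype block is what pairs the arrays with and without TGF-b, and with 1 array per group there is no other replicate block to fit. Of the 28 calls in the gene lists, 19 held without the filter, 18 without the genotype block and 15 without trend and robust settings, and of the 9 neighbour calls 8, 4 and 7.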
